A study of Mus musculus with 8 samples.

Results

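Embryonic globins and other genes of the red cell were followed through mouse dorsal skin at 3 ages. The genes were chosen by name: the embryonic beta-like globins Hbb-y and Hbb-bh1, the embryonic alpha-like globin Hba-x, and Slc4a1, Alas2, Epb42 and Ahsp. Every probeset (a set of short probes read as 1 signal) that the array's annotation gives to exactly 1 of these symbols was used. This gave 13 probesets for 6 of the 7 genes, of 34945 single-symbol probesets tested and 45101 on the array. Ahsp has no such probeset and was not analysed here.

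All the embryos were wild type and untreated as far as the labels say, and the tissue was dorsal skin throughout. Total RNA was measured on 8 Affymetrix Mouse Genome 430 2.0 arrays. Embryonic day 14.5 (E14.5) has 2 of them, and E16.5 and E18.5 have 3 each. The series was made to follow transcription while the epidermis differentiates. The sources used here give no strain, sex or number of embryos per array, so p-values measure the spread between these arrays, which may be technical. In RNA from a whole piece of skin, fewer red cells and less of a transcript per red cell cannot be told apart.

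Mouse embryos make red cells in waves. Primitive red cells form in the yolk sac, carry embryonic globins and circulate while they mature. Definitive red cells then come from the fetal liver and use adult globins, and skin receives both through its blood vessels. Haem, which each globin chain holds, is built along a pathway that opens with an aminolevulinate synthase, encoded in red cells by Alas2. Slc4a1 encodes band 3, the anion exchanger of the red cell membrane, and Epb42 encodes protein 4.2, which binds band 3 from inside.

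Hbb-y and Hbb-bh1 are neighbours in the beta-globin cluster on chromosome 7, and Hba-x lies next to Hba-a1 in the alpha-globin cluster on chromosome 11. The 250 bases before the start of Hbb-y, Hba-x and Alas2 are shown, the first 2 as the embryonic globins that RefSeq's promoter table holds and Alas2 because its course differed from theirs. The sequences come from that table, built on GRCm38.p6, 5′ to 3′ along the gene's strand, and capitals mark matches to 6 motifs. Both strands were searched. The run CACCC is the core of sites for Krüppel-like factors such as Klf1. The run AGATAA with its variants TGATAA (first letter), AGATAG (last letter) and TGATAG (both) stands for sites of GATA factors, and the run TATAAA for a TATA box. Hbb-y lies at chr7:103853208-103853457 (minus strand), Hba-x at chr11:32276350-32276599 (plus strand) and Alas2 at chrX:150547167-150547416 (plus strand).
Hbb-y: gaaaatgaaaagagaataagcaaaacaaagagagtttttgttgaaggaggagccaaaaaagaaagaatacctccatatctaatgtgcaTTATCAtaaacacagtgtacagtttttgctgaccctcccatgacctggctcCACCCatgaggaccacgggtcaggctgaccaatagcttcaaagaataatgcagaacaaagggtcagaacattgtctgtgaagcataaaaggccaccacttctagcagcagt
Hba-x: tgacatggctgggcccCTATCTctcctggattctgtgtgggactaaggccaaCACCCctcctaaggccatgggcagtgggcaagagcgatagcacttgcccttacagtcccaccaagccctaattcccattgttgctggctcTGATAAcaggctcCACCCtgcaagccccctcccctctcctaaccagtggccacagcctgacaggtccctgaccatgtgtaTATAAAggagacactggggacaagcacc
Alas2: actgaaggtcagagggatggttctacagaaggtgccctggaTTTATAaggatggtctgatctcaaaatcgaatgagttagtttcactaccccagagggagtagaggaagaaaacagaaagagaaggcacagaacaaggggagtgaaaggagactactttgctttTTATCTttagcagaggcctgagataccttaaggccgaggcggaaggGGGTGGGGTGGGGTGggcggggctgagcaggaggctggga

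Before Hbb-y, CACCC stood 107 to 111 bases and TGATAA, on the opposite strand, 157 to 162 bases from the start. Hba-x had CACCC at 91 to 95 and at 194 to 198 bases, TGATAA at 103 to 108 bases, TATAAA at 23 to 28 bases and, on the opposite strand, AGATAG at 229 to 234 bases. Alas2 had 3 adjoining CACCC matches on the opposite strand between 26 and 40 bases, AGATAA at 81 to 86 bases and TATAAA at 204 to 209 bases, both on the opposite strand. All 3 windows therefore held a CACCC and a GATA-type match, and none of the matches overlapped another. Of 32851 mouse promoter windows of the same length, 52.0% held CACCC, 9.99% AGATAA, 7.94% TGATAA, 7.71% AGATAG, 6.35% TGATAG and 12.4% TATAAA. These shares are for each motif alone. The larger share of windows with any GATA-type match, and the share with CACCC as well, were not computed. The window before Epb42 held AGATAA and TATAAA, each on the opposite strand, and no CACCC. Hbb-bh1 and Slc4a1 are named only.

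Some arrays stood apart from the rest. The E14.5 arrays correlated with the later ones at 0.758 to 0.788 over all probesets, whereas E16.5 and E18.5 correlated at 0.938 to 0.958. Their actin control probesets had 3′ over 5′ ratios of 6.49 to 6.91, against 1.11 to 1.37 on the later arrays, and their median signal was 60.8 to 63.4 against 120.1 to 153. The labels give the same extraction and labelling protocols for all 8 arrays, and what set these control values apart was not tested. In any comparison with E14.5, the stage and this difference between arrays cannot be told apart. E14.5 replicate 1 also carried transcripts of fetal hepatocytes, which 17 probesets measured: their summed signal was 247935 there, 782 on E14.5 replicate 2 and 177 to 557 on the later arrays. Markers of keratinocytes and dermal fibroblasts, such as Krt5 and Col1a1, were above background in 17 to 20 of 20 probesets on every array. Background was set on each array at the 95th percentile of 80 probesets for olfactory and vomeronasal receptors. It lay at a signal of 43.9 to 45.7 on the E14.5 arrays, 33.6 to 53.2 on those of E16.5, and 62.2 to 92.2 on those of E18.5. The same signal can thus be above background on an E16.5 array and below it on an E18.5 array.

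Between E14.5 and E18.5 the red cell genes took different courses. Hbb-y was far above background at E14.5 and near it at E18.5. Hbb-bh1 was dim at E14.5 and at background afterwards except on E16.5 replicate 1, and Hba-x and Slc4a1 were lower at E18.5 than at E16.5. Alas2 had its highest signal at E16.5. The plot of signal by array shows all 13 probesets.

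**Figure D1:**
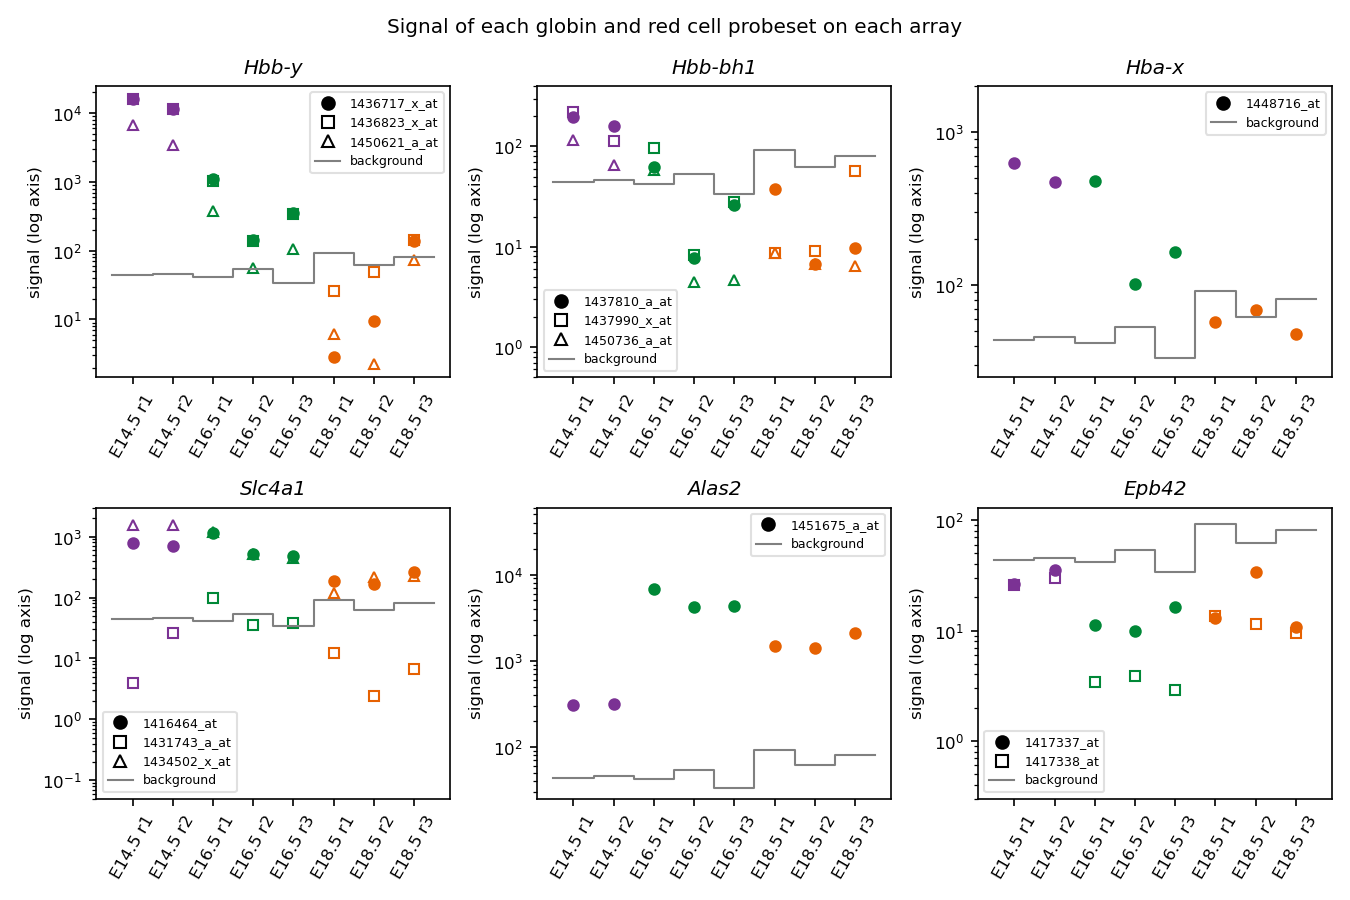
Signal (log axis) of each of the 13 probesets on each of the 8 arrays, 1 panel per gene, coloured by stage (r is the replicate), with 1 symbol per probeset and the array's background as a grey step line. Hbb-y ran from 15900.2 down to 2.25, Alas2 peaked at 4156 to 6794 on the E16.5 arrays, and Epb42 stayed below the line on all 8 arrays.

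Hbb-y encodes the beta-like chain that pairs with alpha-like chains in primitive red cells. Its probeset 1436717_x_at read 15900.2 and 11469.7 on the E14.5 arrays, 1095, 142 and 349.6 on those of E16.5, and 2.84, 9.49 and 140.1 on those of E18.5. The 3 stages did not overlap, and at E18.5 only replicate 3 was above its background of 81.0. Probeset 1436823_x_at read 15884 and 11372.5 on the E14.5 arrays, 1035, 139 and 344 on those of E16.5, and 26.1, 49.4 and 144 on those of E18.5. Here E18.5 replicate 3 reached above the lowest E16.5 array, so the later stages overlapped. The third probeset, 1450621_a_at, read 6606 and 3442 on the E14.5 arrays, 379, 56.5 and 106 on those of E16.5, and 6.14, 2.25 and 73.2 on those of E18.5, where no array was above background. The order of the arrays within E16.5 was the same on all 3 probesets, with replicate 1 highest and replicate 2 lowest.

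Hbb-bh1 encodes the other embryonic beta-like chain, which mouse primitive red cells use most in their early life. Its probeset 1437990_x_at read 222 and 113 on the E14.5 arrays, 96.2, 8.28 and 27.9 on those of E16.5, and 8.72, 9.12 and 56.3 on those of E18.5. Probeset 1437810_a_at read 194 and 158 on the E14.5 arrays, 62.8, 7.71 and 25.8 on those of E16.5, and 37.9, 6.67 and 9.76 on those of E18.5. Both E14.5 arrays were above background on all 3 probesets of the gene. At E16.5 replicate 1 alone was above background, again on all 3, and at E18.5 none was. The third probeset, 1450736_a_at, read 116 and 65.3 on the E14.5 arrays, 58.6, 4.47 and 4.66 on those of E16.5, and 6.47 to 8.56 on those of E18.5.

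Hba-x encodes zeta globin, the embryonic alpha-like chain. Its 1 probeset read 625 and 471 on the E14.5 arrays, 477, 101 and 164 on those of E16.5, and 57.6, 68.8 and 47.9 on those of E18.5. E16.5 replicate 1 thus lay between the E14.5 arrays, while the other two E16.5 arrays were lower. Every E18.5 array was below every E16.5 array, and only E18.5 replicate 2 was above background.

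Slc4a1, for band 3, was measured by 3 probesets that did not run alike. Probeset 1416464_at read 771 and 693 on the E14.5 arrays, 1163, 525 and 480.3 on those of E16.5, and 184, 167 and 262 on those of E18.5. The E16.5 arrays lay on both sides of E14.5, and the E18.5 arrays were below both earlier stages. Probeset 1434502_x_at read 1539 and 1569.8 on the E14.5 arrays, 1194, 526 and 450.1 on those of E16.5, and 118, 216 and 226 on those of E18.5, with no overlap between stages. Probeset 1431743_a_at was dim, with 3.91 and 26.1 on the E14.5 arrays, 97.9, 34.8 and 38.6 on those of E16.5, and 2.45 to 12.3 on those of E18.5. E16.5 replicates 1 and 3 alone were above background on it.

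Alas2 encodes the red cell form of the enzyme that opens haem synthesis. It was measured by 1451675_a_at alone. This probeset read 309 and 316 on the E14.5 arrays, 6794, 4156 and 4274 on those of E16.5, and 1477, 1413 and 2104 on those of E18.5. The 3 stages did not overlap, and the order was E16.5, E18.5, E14.5 from high to low. All 8 arrays were above background.

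Epb42, for protein 4.2, was below background on all 8 arrays with both probesets. Probeset 1417337_at read 9.93 to 35.2 and 1417338_at 2.89 to 29.9 over the 8 arrays. Its values are therefore bounds only, and no fold is given for it.

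The first comparison set E18.5 against E16.5, the later interval. The actin control ratios of these 2 stages were closer to each other than to those of E14.5, but did not overlap. They were 1.11 to 1.14 on the E16.5 arrays, against 1.35 to 1.37 on the E18.5 arrays. Background was higher on every E18.5 array than on any E16.5 array, as given above. The part of these differences in the results was not tested. Differences are means of log2(signal + 16), tested with limma over all 34945 probesets. A probeset was called where its p, adjusted by Benjamini-Hochberg, was under 0.05. Hbb-y, Hba-x, Slc4a1 and Alas2 were lower at E18.5, and Hbb-bh1 and Epb42 were not called. Of the 13 probesets 7 fell and 0 rose. Over all probesets 4.44% fell and 6.27% rose. The median difference was -1.58 over the 13 probesets and 0.12 over all. No E18.5 array reached the E16.5 arrays on 6 of the 13 probesets, against 13.6% of all probesets, and 1 of the 13, an Epb42 probeset below background, lay wholly the other way, against 23.2%. With median centring 8 of the 13 fell, and over all probesets 6.59% fell and 4.13% rose. With quantile normalization 7 fell, against 4.51% that fell and 4.66% that rose over all.

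Alas2 fell by 1.58 (SE 0.21) on the log2 scale, 3.02-fold as a ratio of geometric mean signals (limma, adjusted p = 0.00171). Slc4a1 fell by 1.65 (SE 0.31) on 1416464_at, 3.32-fold (limma, adjusted p = 0.00877). It fell by 1.78 (SE 0.34) on 1434502_x_at, 3.66-fold (limma, adjusted p = 0.0102). These 3 differences were larger than the spread between arrays under all alternatives run, with adjusted p-values up to 0.0161 for Alas2, 0.0329 for 1416464_at and 0.0372 for 1434502_x_at. On the dim Slc4a1 probeset 1431743_a_at the difference was -1.58 (SE 0.41; limma, adjusted p = 0.0353), with all E18.5 arrays below background.

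The embryonic globins Hbb-y and Hba-x fell too. Hbb-y fell by 3.25 (SE 0.80) on 1436717_x_at (limma, adjusted p = 0.0283) and by 2.35 (SE 0.63) on 1436823_x_at (limma, adjusted p = 0.0396). Since 2 of the 3 E18.5 arrays were at background, these are drops of at least 4.08-fold and at least 3.91-fold. An at-least fold sets the bright stage's geometric mean signal against the higher of background and signal on each dim array. On 1450621_a_at the difference was -2.20 (SE 0.68) and was not called (limma, adjusted p = 0.0666). Hba-x fell by 1.57 (SE 0.44), at least 2.49-fold (limma, adjusted p = 0.0478). The 3 Hbb-bh1 probesets differed by -0.44 to -0.47 with adjusted p-values of 0.589 to 0.646 by limma, and most arrays of both stages were below background.

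Single arrays decided several of these calls. Without E16.5 replicate 1, 3 of the 13 probesets fell, against 1.89% of all. The Hbb-y differences were then -2.51 on 1436717_x_at (limma, adjusted p = 0.1) and -1.63 on 1436823_x_at (limma, adjusted p = 0.115). Those of Hba-x (-0.98, limma, adjusted p = 0.115) and of Slc4a1 1431743_a_at (-1.21, limma, adjusted p = 0.128) were not called either. The count was also 3 without E16.5 replicate 3, without E18.5 replicate 1 and without E18.5 replicate 2. Over all probesets 1.30%, 4.16% and 3.97% fell in these 3 cases. In those 3 cases limma gave adjusted p-values of 0.0855 to 0.0947 for Hbb-y 1436717_x_at, 0.0978 to 0.124 for 1436823_x_at and 0.0779 to 0.11 for Hba-x. Hba-x was also not called without E18.5 replicate 3 (limma, adjusted p = 0.0976). Slc4a1 1431743_a_at lost its call whichever array of E16.5 or E18.5 was left out, with adjusted p-values of 0.0534 to 0.128 by limma. Without E14.5 replicate 1 or 2, which enter only the shared spread, 5 fell, and Hba-x (adjusted p up to 0.0647 by limma) and Hbb-y 1436823_x_at (up to 0.0598) were not called.

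**Figure D2:**
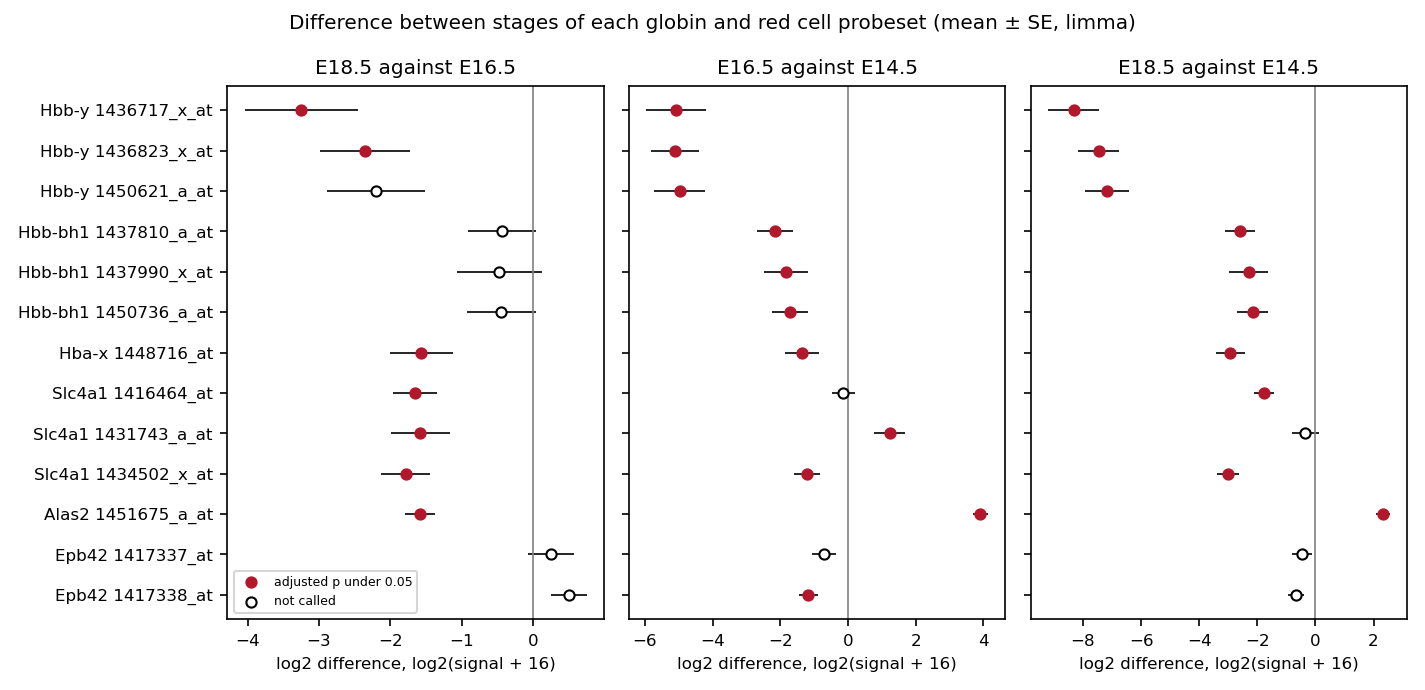
Difference in log2(signal + 16) for each of the 13 probesets in the 3 comparisons, with the standard error from limma as bars; negative values are lower at the later stage, and calls at adjusted p under 0.05 are marked. Alas2 lies at 3.92 for E16.5 against E14.5 and at -1.58 for E18.5 against E16.5, while the Hbb-y probesets lie between -2.20 and -8.32 in all 3.

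E16.5 replicate 1 stood apart from the other two E16.5 arrays on the red cell genes. Of the 7 probesets above background on all 3 E16.5 arrays, it was the highest on 7, each time at least 1.5-fold above both others. Over all tested probesets above background at E16.5 the same held for 255 of 23592, or 1.08%. Its signal over the geometric mean of the other two was 4.91, 4.73 and 4.90 on the Hbb-y probesets and 3.71 for Hba-x. It was 2.32 and 2.45 for Slc4a1 and 1.61 for Alas2. The embryonic globins thus differed more between these arrays than Slc4a1, and Slc4a1 more than Alas2, as a description of 3 arrays.

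Some probesets of other red cell genes were also highest there. Among 92 such probesets above background at E16.5, 9 (9.78%) were at least 1.5-fold higher on replicate 1, beside 1.08% of all probesets. They included Bpgm, which makes the oxygen-affinity regulator bisphosphoglycerate, at 1566 against 847 and 836, and Car2, a carbonic anhydrase, at 1138 against 661 and 636. The adult beta-globin probeset 1427866_x_at (Hbb-b2) read 1220.5 there against 395 and 532. In the marker lists of endothelium, platelets, macrophages, neutrophils and skin 0 probesets were that much higher on replicate 1. Some of the 92 went the other way, and these were not counted. On E16.5 replicate 1 Prdx2 read 132 on 1430979_a_at against 2898 and 2923, and Hebp1 read 746 against 1287 and 1352. Abcb10 read 252 there on 1416403_at against 460 and 418. At E18.5, 3 of the 13 probesets were above background on all arrays, and replicate 3 was highest on each of them, as on 32.7% of all such probesets. By the 1.5-fold rule, 0 of the 3 stood apart on E18.5 replicate 3, beside 5.17% of all. The signal of that array over the geometric mean of the other two was 1.497 and 1.42 for Slc4a1 and 1.46 for Alas2.

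**Figure D3:**
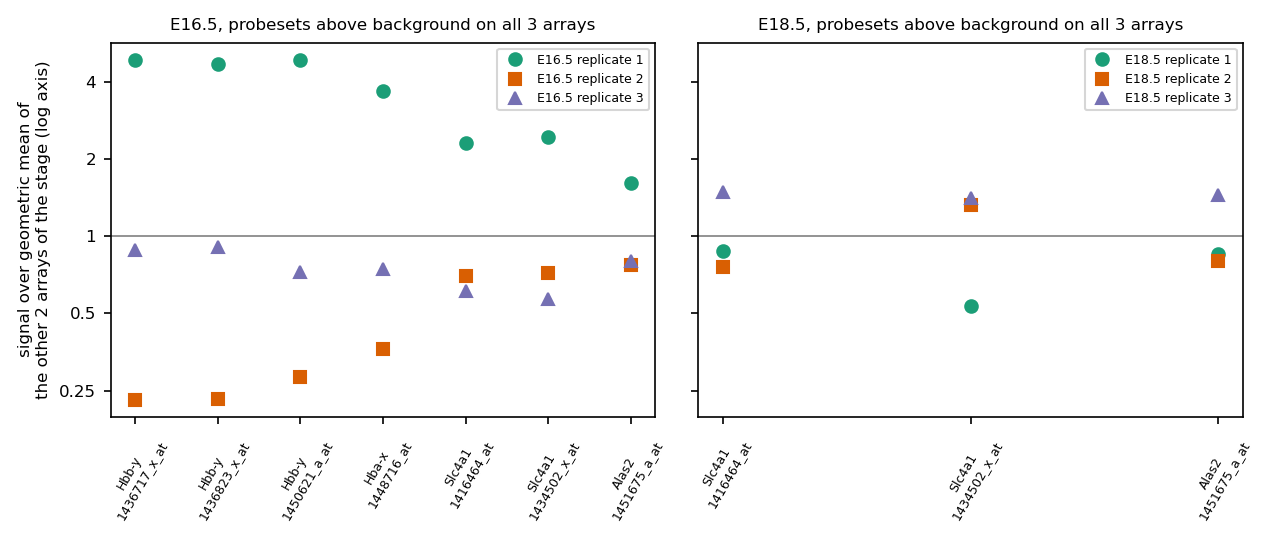
Signal on each array over the geometric mean of the other 2 arrays of its stage (log axis), for the probesets above background on all 3 arrays of E16.5 (left, 7) and of E18.5 (right, 3). E16.5 replicate 1 lies between 1.61 for Alas2 and 4.91 for Hbb-y, above the other E16.5 arrays on each probeset.

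The fall after E16.5 was set beside 6 other red cell lists: adult globins, haem synthesis, iron uptake, membrane and skeleton, erythroid transcription factors, and other red cell genes. They hold 72 genes, of which 58 were measured by 118 probesets. From E16.5 to E18.5, 9 of these probesets fell and 3 rose, with a median difference of -0.01. That is 7.63% and 2.54%, beside 4.44% and 6.27% of all probesets. The other 106 were not called.

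Haem synthesis had 2 falls among 21 probesets. Cpox, a late enzyme of the pathway, fell on 1422493_at (-0.92, SE 0.23; limma, adjusted p = 0.0284). Its other probesets were not called and differed by 1.04 (limma, adjusted p = 0.0612) and 0.38. Fech, the last enzyme, which inserts the iron, fell on 1418699_s_at (-0.75, SE 0.16; limma, adjusted p = 0.0144). Its other 3 probesets lay between -0.37 and 0.08 and were not called. Iron uptake had 2 falls among 12: the transferrin receptor Tfrc on 1422966_a_at (-1.37, SE 0.26; limma, adjusted p = 0.00986) and the mitochondrial iron importer Slc25a37 (-1.18, SE 0.23; limma, adjusted p = 0.0104). This Tfrc probeset read 911, 610.0 and 513 at E16.5 and 178, 302 and 274 at E18.5, with no overlap, while the other two Tfrc probesets differed by -0.46 and -0.37 and were not called. Proliferating cells of any kind also use Tfrc.

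In the membrane and skeleton list of 29 probesets 1 fell and 2 rose. Ank1, the ankyrin that ties band 3 to the spectrin skeleton, fell by 1.20 (SE 0.23) on 1419421_at (limma, adjusted p = 0.00989). The probeset read 1196, 846 and 942 at E16.5 and 487, 318 and 478 at E18.5. The other 3 Ank1 probesets lay between -0.01 and 0.42 and were not called. The 2 rises were both Cd24a (1.71 and 0.85), a surface protein that epithelial cells make as well. Among 32 probesets of erythroid transcription factors 2 fell, 1 of Klf3 (-1.15) and the 1 of Lmo2 (-0.59), and 1 of Bcl11a rose (0.68). The other 6 probesets of Klf3 ran from -1.22 to 0.79 and those of Bcl11a from -0.64 to 0.40, with no call. Each of these genes is also made outside red cells. In the last list of 20, Car2 (-1.19) and 1 of 3 Bpgm probesets (-0.85) fell, and the other Bpgm probesets differed by 0.03 and -0.58. Gata1, the master regulator of red cells, read 136 to 174 on the E16.5 arrays and 53.7 to 163 on those of E18.5, with no call.

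When E16.5 replicate 1 was left out, 7 of the 118 probesets (5.93%) fell and 3 (2.54%) rose, beside 1.89% and 2.86% of all probesets. Cpox, Ank1 and Lmo2 were then not called, with limma adjusted p-values of 0.114, 0.0525 and 0.12. Bcl11a was not called either (limma, adjusted p = 0.0584). With median centring 16 (13.6%) fell and 3 (2.54%) rose, beside 6.59% and 4.13% of all probesets. With quantile normalization 9 (7.63%) fell and 3 (2.54%) rose, beside 4.51% and 4.66%.

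**Figure D4:**
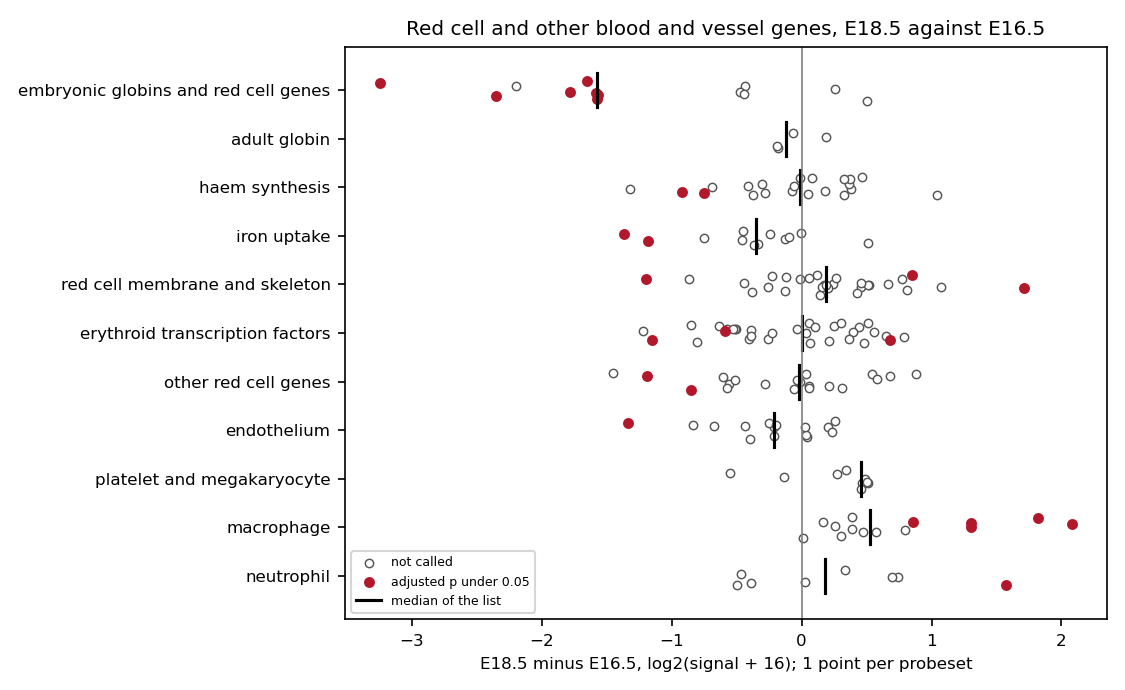
Difference in log2(signal + 16) between E18.5 and E16.5 for each probeset of the embryonic globin and red cell genes and of the other lists, 1 point per probeset, with called probesets marked. The red cell genes in the first row have a median of -1.58, while the 118 probesets of the 6 other red cell lists have a median of -0.01.

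Markers of other blood and vessel cells were counted over the same interval. Over all probesets 4.44% fell and 6.27% rose, as above. Of 14 macrophage probesets 5 rose and 0 fell, including C1qb (2.08, limma, adjusted p = 0.00047) and Cd163 (1.30, limma, adjusted p = 0.00824). Their summed signal was 10631 to 11785 on the E16.5 arrays and 13734 to 18972 on those of E18.5. Among 15 endothelial probesets 1 fell, of Cdh5 (-1.33, limma, adjusted p = 0.00554), and its other probeset was not called (-0.83). The endothelial sums were 9787 to 11193 on the E16.5 arrays and 8522 to 9028 on those of E18.5. Platelet markers had 0 calls among 9 probesets, and among 8 neutrophil probesets Camp rose (1.58, limma, adjusted p = 0.0191). Over the 13 red cell probesets the sum was 5715 to 12468 on the E16.5 arrays and 1966 to 3097 on those of E18.5. Most of this sum came from the single Alas2 probeset. It read 4156 of the 5715 on E16.5 replicate 2 and 1477 of the 1966 on E18.5 replicate 1. The part of these cell types in the red cell values was not tested.

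**Figure D5:**
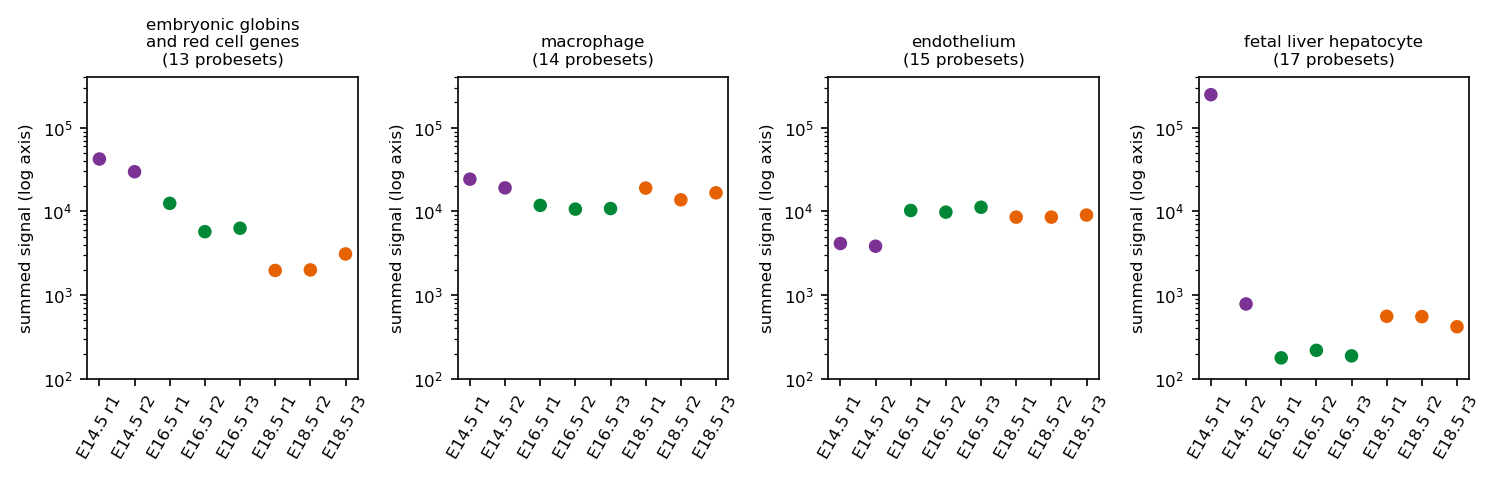
Summed signal (log axis, same scale in all panels) on each array for the 13 red cell probesets and for the macrophage, endothelium and fetal liver hepatocyte lists, coloured by stage. The red cell sum is 29762 and 42224 on the E14.5 arrays and 1966 to 3097 on those of E18.5, and the hepatocyte sum reaches 247935 on E14.5 replicate 1 alone. The red cell sum is mostly Hbb-y at E14.5 (15900, 15884 and 6606 of the 42224 on replicate 1) and mostly Alas2 at E18.5 (1477 of the 1966 on replicate 1).

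The second comparison set E16.5 against E14.5, between which the control probesets differed as given above. Hbb-y, Hbb-bh1 and Hba-x were lower at E16.5, and Alas2 was higher. Of the 13 probesets 9 fell and 2 rose. Over all probesets 18.7% fell and 38.9% rose, the median difference being -1.36 for the 13 and 0.38 for all. Every E16.5 array was below every E14.5 array on 9 of the 13 probesets (25.8% of all) and above on 2 (47.9% of all). With median centring 11 of the 13 fell and 1 rose, against 41.6% and 20.6% of all, for which the median was -0.57. With quantile normalization 10 fell and 1 rose, against 26.2% and 27.7%.

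Hbb-y fell on its 3 probesets, with log2 differences of -5.08 (SE 0.89), -5.11 (SE 0.70) and -4.98 (SE 0.76) and limma adjusted p-values of 0.000528, 8.94e-05 and 0.0002. As ratios of geometric mean signals these were 35.6-fold, 36.6-fold and 36.3-fold. Hbb-y was called lower under all alternatives run, with differences of -4.41 to -6.07. Hbb-bh1 fell by 2.16 (SE 0.53) on 1437810_a_at, at least 3.63-fold (limma, adjusted p = 0.00468). It fell by 1.83 (SE 0.66) and 1.71 (SE 0.54) on the other two (limma, adjusted p = 0.035 and 0.0179). Hba-x fell by 1.36 (SE 0.49), 2.72-fold, although its arrays overlapped (limma, adjusted p = 0.036).

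Alas2 rose by 3.92 (SE 0.23), 15.8-fold (limma, adjusted p = 2.09e-07), and by 2.96 with median centring. This rests on 1451675_a_at alone, so whether another probeset of the gene would differ in sign cannot be seen. Slc4a1 fell by 1.22 (SE 0.38), 2.37-fold, on 1434502_x_at (limma, adjusted p = 0.0184). It rose by 1.23 (SE 0.46), at least 1.13-fold, on 1431743_a_at (limma, adjusted p = 0.0389), and on 1416464_at the difference was -0.13 (SE 0.34; limma, adjusted p = 0.771), or -1.08 and called with median centring (limma, adjusted p = 0.0142). The 2 called probesets of this gene thus disagreed in sign. The same was seen outside the embryonic genes: Hbb-b2 fell by 7.81 on 1427865_at (from 21641 and 23983 to between 65.6 and 118) and rose by 2.28 on 1427866_x_at (from 118 and 119.6 to between 395 and 1220.5). Epb42 1417338_at was called lower (-1.17, limma, adjusted p = 0.00399) with every array below background.

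In the 6 other red cell lists 23 of 118 probesets (19.5%) fell and 50 (42.4%) rose, beside 18.7% and 38.9% of all probesets. With median centring 46 (39.0%) fell and 32 (27.1%) rose, beside 41.6% and 20.6%. By limma at an adjusted p under 0.05, the largest differences in the haem list were 3.66 and -2.73 for Cpox and 3.06 for the mitochondrial transporter Abcb10. They were 2.32 and 2.28 for the iron transporter Slc11a2 and -2.14 for Tfrc in the iron list. In the membrane list they were 4.17 for Ank1, -3.56 for Cd24a and -3.15 for tropomodulin (Tmod1). Among the transcription factors they were 4.31 and 3.30 for Klf3 and 3.50 for Ldb1, and in the last list 3.43 for Blvrb, 3.41 for Bpgm and 3.27 for Tspo2. Of the adult globins, Hba-a2 differed by -3.20 beside the Hbb-b2 values above. Besides Hbb-b2, Cpox, Fech, Abcb10, Tfrc, Cd24a, Xk, Bcl11a and Bpgm each had probesets that fell and probesets that rose. So did 5 of the 10 skin marker genes: Col1a1, Col3a1, Dcn, Lor and Trp63.

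Without E14.5 replicate 1, the array with hepatocyte transcripts, 5 of the 13 probesets fell and 1 rose, against 16.7% and 35.4% of all. The 3 Hbb-y probesets then differed by -4.84, -4.87 and -4.51 (limma, adjusted p = 0.00941, 0.00255 and 0.00536), and Alas2 by 3.90 (limma, adjusted p = 1.37e-05). Hbb-bh1 kept its call on 1437810_a_at (-2.03, limma, adjusted p = 0.0367) and lost it on 1437990_x_at (-1.39, limma, adjusted p = 0.211) and 1450736_a_at (-1.36, limma, adjusted p = 0.128). Hba-x was not called (-1.16, limma, adjusted p = 0.179), nor were Slc4a1 1434502_x_at (-1.24, limma, adjusted p = 0.0788) and 1431743_a_at (0.69, limma, adjusted p = 0.298). E14.5 replicate 2, which stays in that fit, also had 8 of 17 hepatocyte probesets above background, against 1 or 2 on the later arrays. The part of liver tissue in the E14.5 values was not tested beyond this. Without E16.5 replicate 2, 5 of the 13 probesets fell and 2 rose, against 16.6% and 35.2% of all. Without E16.5 replicate 3, 5 fell and 2 rose as well, against 16.4% and 35.8%. In both cases Hba-x (-0.91 and -1.22; limma, adjusted p = 0.119 and 0.0989), Hbb-bh1 1437990_x_at (0.119 and 0.0826) and 1450736_a_at (0.0664 and 0.0663), and Slc4a1 1434502_x_at (0.0619 and 0.0659) were not called. Without E14.5 replicate 2, limma gave adjusted p-values of 0.0787 for Hba-x, 0.0521 for Hbb-bh1 1437990_x_at and 0.0843 for Slc4a1 1434502_x_at. Without E18.5 replicate 1 that of Hba-x was 0.0512, and without E18.5 replicate 3 that of Slc4a1 1431743_a_at was 0.0504. Without E16.5 replicate 1, the rise of Slc4a1 1431743_a_at was not called (0.86, limma, adjusted p = 0.133), nor was it with median centring (0.28, limma, adjusted p = 0.614).

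Over the whole interval, E18.5 against E14.5, 9 of the 13 probesets fell and 1 rose. Over all probesets 16.9% fell and 42.9% rose, and the medians were -2.30 for the 13 and 0.59 for all. This comparison shares its arrays with the other two, and the control probesets of its stages differed too. Every E18.5 array was below every E14.5 array on 10 of the 13 probesets (20.0% of all) and above on 1 (49.6% of all). With median centring 12 of the 13 fell and 1 rose, against 39.3% and 19.3% of all. With quantile normalization 11 fell and 1 rose, against 25.7% and 27.2%.

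Hbb-y had the largest log2 drops of the 6 genes. Its differences were -8.32 (SE 0.89), -7.47 (SE 0.70) and -7.18 (SE 0.76), which were falls of at least 145-fold, 143-fold and 61.6-fold (limma, adjusted p = 1.4e-05, 5.54e-06 and 1.35e-05). Hba-x fell by 2.92 (SE 0.49), at least 6.77-fold (limma, adjusted p = 0.000403). Slc4a1 fell by 3.00 (SE 0.38), 8.68-fold, on 1434502_x_at and by 1.79 (SE 0.34), 3.65-fold, on 1416464_at (limma, adjusted p = 5.29e-05 and 0.000995). Hbb-bh1 fell on all 3 probesets, with differences of -2.60, -2.30 and -2.16 (limma, adjusted p = 0.00144, 0.0113 and 0.00498), at least 2.26-fold, 2.05-fold and 1.12-fold. Alas2 rose by 2.33 (SE 0.23), 5.24-fold (limma, adjusted p = 8.4e-06), and by 1.26 with median centring. Without E14.5 replicate 1 the calls of Hbb-bh1 1437990_x_at (-1.86, limma, adjusted p = 0.0993) and 1450736_a_at (-1.81, limma, adjusted p = 0.0508) were lost, and 7 fell and 1 rose, against 15.2% and 38.6% of all.

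Adult globins were read beside these drops. Probesets of the adult alpha globins that name several genes, and so were not tested, read 4397 to 19537 on the E14.5 arrays, 10959.7 to 20800.0 on those of E16.5 and 12647 to 32632 on those of E18.5 over 3 probesets. The 1 such beta-globin probeset read 26299 and 27350.2 on the E14.5 arrays, 18583 to 22605 on those of E16.5 and 26435 to 31479.7 on those of E18.5. These 4 probesets were thus far above background at all 3 stages. On the beta probeset every E18.5 array was above every E16.5 array. The same held for the alpha probeset that read 18389, 20215.5 and 20800.0 at E16.5 and 26342, 29092 and 30348 at E18.5. It also held for the alpha probeset that read 15757, 18368 and 18159 at E16.5 and 28121, 29822 and 32632 at E18.5. On the remaining alpha probeset the arrays overlapped (13679, 12644 and 10959.7 against 12647, 14920 and 15148). Over all tested probesets, 23.2% had every E18.5 array above every E16.5 array. The highest signal of any probeset was also higher at E18.5 (38570 to 39825) than at E16.5 (27950 to 30874). These differences were not tested. The probesets that name 1 adult globin read lower: at E18.5 Hbb-b2 read 83.9 to 110.01 on 1427865_at and 471 to 714 on 1427866_x_at, Hba-a2 read 70.1 to 118, and Hba-a1 was above background on 0 of 8 arrays. E16.5 replicate 1, the highest array for the embryonic globins, was the highest of its stage on 1 of the 4 several-gene probesets. That was an alpha one (13679 against 12644 and 10959.7). It was the lowest of its stage on the beta one, at 18583, and on both other alpha ones, at 18389 and 15757.

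The genes with the profiles most like each member were found over all 8 arrays by the root mean square distance between centred log2(signal + 16) profiles. For Hba-x the nearest was Slc4a1 (distance 0.39), and for Slc4a1 it was Hba-x. Npas3 (0.50) and Trim2 (0.51) followed for Hba-x, and Vcam1 (0.40) and Uba6 (0.41) for Slc4a1. Alas2 was nearest to Fam220a (0.25), Ngfr (0.26) and Krit1 (0.28). For Hbb-y the nearest, at larger distances, were Rbm39 (0.86), Pa2g4 (0.90) and Pdrg1 (0.93), and Hbb-bh1 was nearest to Kmt5b (0.47), Zfhx3 (0.47) and Raph1 (0.48). All these profiles share the 8 arrays, on which the E14.5 controls differed, so the distances are a description.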

How the data were processed

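Mouse dorsal skin was measured at 3 ages on 8 arrays. The authors deposited 1 intensity per probeset and array, made with PLIER 2.0 in Affymetrix Expression Console 1.1 per the submitters' processing notes; per the labels' protocols, target was primed with random hexamers. Probesets with several symbols (932), none (9211) and controls (64) were left out.

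A pseudocount of 16 was added, log2 taken, and 1 mean per stage fitted to all 8 arrays with limma 3.58.1 (R 4.3.3) with a variance trend. Benjamini-Hochberg adjustment ran over 34945 probesets (18193 genes). The number of arrays limits the precision. The fit was tested on simulated data.

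The genes and lists were chosen with earlier results of these data known. All red cell members were named; of each other list, up to 3 called probesets with the largest differences were named for E18.5 against E16.5 and, in the red cell lists, for E16.5 against E14.5. Probesets outside that rule were chosen after their values were seen. They are Gata1, other probesets of a named gene, genes whose probesets differed in sign, and adult globins at E16.5 and E18.5. Single arrays of Bpgm, Car2, Hbb-b2, Prdx2, Hebp1 and Abcb10 were chosen in the same way. Replicate numbers follow the order of the sample records; the titles carry short codes whose meaning is not given. Likeness used the brightest probeset of each gene and named 3 neighbours. Alternatives were other pseudocounts (1, 64), quantile normalization, median centring, a filter on dim probesets, no variance trend, the 2 stages alone, 1 probeset per gene, and each array left out. Protein sequences were not used here.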

Additional observations from a re-analysis of the deposited data

How the results depend on the processing

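Of 831 alternatives for single probesets of the red cell members and other named genes, 732 kept direction and side of the threshold, 79 lost the call, 12 gained it and 8 changed sign. E18.5 against E16.5 had 7 of 13 red cell probesets called, 3 without a variance trend, 4 (of 6) with 1 probeset per gene, and 3 to 6 when each array was left out. E16.5 against E14.5 had 11, 5 with 1 probeset per gene and 6 to 11 with an array left out. E18.5 against E14.5 had 10, 5 with 1 probeset per gene and 8 to 10 with an array left out; with 1 probeset per gene fewer probesets were tested by construction. Over all probesets, 2.34% fell and 4.63% rose in E18.5 against E16.5 without a variance trend. With 1 probeset per gene, 5.58% fell and 7.28% rose there. The shares were then 20.8% and 37.1% in E16.5 against E14.5 and 19.5% and 41.7% in E18.5 against E14.5. Without 1 array of E16.5 or E18.5, 1.30% to 5.71% fell and 2.15% to 6.08% rose in E18.5 against E16.5. In the same settings 16.4% to 19.5% fell and 35.2% to 39.8% rose in E16.5 against E14.5, where 5 to 9 of the 13 fell and 1 or 2 rose. For E18.5 against E14.5 the shares were 16.1% to 17.3% and 41.2% to 42.5%, and 9 of the 13 fell and 1 rose each time. With an array left out, the Hbb-bh1 differences for E18.5 against E16.5 ran from -0.86 to 0.0042 (1437810_a_at), -0.98 to 0.12 (1437990_x_at) and -0.76 to 0.18 (1450736_a_at), above 0 only without E16.5 replicate 1. Epb42 1417337_at turned there to -0.039 with quantile normalization, and ran from -0.029 (without E18.5 replicate 2) to 0.42 with an array left out. Slc4a1 1416464_at ran from -0.53 to 0.097 in E16.5 against E14.5, above 0 without E16.5 replicate 2 (0.034) or 3, and 1431743_a_at from -0.88 to 0.20 in E18.5 against E14.5, above 0 without E14.5 replicate 2. None of these turned values was called, and the cause was not tested. In E18.5 against E16.5, Hba-x lost its call in 10 of 16 alternatives and Hbb-y in 5 of 15 (1436717_x_at) and 9 of 16 (1436823_x_at), with adjusted p-values up to 0.115, 0.1 and 0.124. Signals near background limit Epb42, Hbb-bh1 and the later Hbb-y values. Where an array left out leaves E14.5 with 1 array, that array is assumed to vary like the others. No paired analysis was possible because the replicate numbers only follow the order of the sample records, and the titles' codes are not explained and are not shared across all stages.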
